A study of Arabis alpina with 9 samples.

Results

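F-box genes whose annotation names an RNI-like or an FBD domain were followed in shoot apices of *Arabis alpina*, a perennial relative of Arabidopsis. A gene was taken as a member when its description in the deposited gene table contained the words F-box/RNI-like or FBD, and 63 of the 30690 genes in that table did. Of these, 30 were described as F-box/RNI-like without FBD, 28 as FBD together with F-box, RNI-like or leucine-rich repeats, and 5 as FBD alone. RNA came from dissected shoot apices of 3-week-old *pep2-1*, *pep1-1* and wild-type (WT, Pajares) plants kept in long days of 16 h light and 8 h dark, with 3 libraries per genotype that the study calls biological replicates. *pep1-1* and *pep2-1* are mutants of *PEP1* and *PEP2*, obtained by EMS mutagenesis of Pajares. Each is a single allele, and the *pep2-1* plants were homozygotes picked with a marker out of a segregating population. The members were chosen by the text of their descriptions, and no expression value enters that rule. The family itself was put forward with earlier results on these libraries in view, so that its counts and medians in all 3 comparisons stand as descriptions.

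F-box proteins are the variable subunits of SCF ubiquitin ligases. The F-box binds SKP1 (ASK in Arabidopsis), which ties the protein to a CULLIN1 scaffold, and the rest of the protein binds the target that is to be ubiquitinated. In RNI-like members that part is a stretch of leucine-rich repeats, as in the auxin receptor TIR1, and many plant F-box proteins carry an FBD domain near the carboxyl end, whose role is poorly known. In Arabidopsis these genes form a large family that lies partly in tandem arrays, and most members have no known target.

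The libraries held 12871903 to 23829973 reads in genes. Reads of *PEP2* (AALP_AA7G245300) were present in every *pep2-1* library, at 72.2, 80.7 and 84.8 CPM (reads divided by the TMM-corrected size of a library), against 67.6, 54.9 and 57.9 CPM in WT libraries, so that the genotypes cannot be checked by it. *PEP1* is left out here. Of the 6 tested shoot apex markers, including *STM*, *KNAT1*, *CLV1*, *ATML1* and *ANT*, none was called between any genotypes by edgeR (2 at an unadjusted p under 0.05 in *pep2-1* compared with WT), while the authors' FPKM of *WUS* was 0 in *pep2-1* and in WT and that of *CLV3* was 0 in *pep2-1* and 0.204 in WT. Both defining genes *WUS* and *CLV3* thus were at or near 0. The flower markers *AP1* and *AG* were listed at 0 in all genotypes, whereas *LFY* had 2.14 FPKM in *pep2-1*, 2.52 in *pep1-1* and 1.96 in WT, and *AP3* had 1.17, 0.763 and 1.34 FPKM. The leaf gene *LHCB1.3* stood at 4641 FPKM in *pep2-1*, 4099 in *pep1-1* and 3880 in WT. The other leaf marker, *LHCB2.1*, had 293, 145 and 184 FPKM, with 499 CPM in *pep2-1* replicate A against 139 and 161 CPM in B and C. The part of leaf tissue in the results was not tested. Of the 2 tested markers each for leaf and flower, edgeR called 0 in any comparison, with 1 flower marker at an unadjusted p under 0.05 in *pep1-1* compared with WT. The first principal component (49.5% of the variance of all tested genes) set replicate A apart from B and C within each genotype. In library order A, B, C its values were -36.6, -12.1 and -22.0 in *pep2-1*, -3.61, 26.4 and 28.5 in *pep1-1*, and -17.2, 18.5 and 18.1 in WT. All *pep2-1* libraries thus lay on the side of replicate A of the other genotypes. Among the 51 tested members, replicate A was the lowest of the 3 libraries for 13 members in *pep2-1*, 23 in *pep1-1* and 27 in WT, against 36.9%, 35.3% and 38.96% of all tested genes in the same genotypes. Its part in the results below was not tested, and the counts are also given without the replicate A libraries.

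Members were expressed at low to moderate levels. Levels of different genes were compared by the authors' FPKM, 1 pooled value per genotype with no error attached. The median over the 63 members was 3.18 FPKM in *pep2-1*, 3.98 in *pep1-1* and 4.02 in WT, and 39, 42 and 45 members reached 1 FPKM in these genotypes. All described genes had a median of 10.4, 10.2 and 10.3 FPKM. The 104 other F-box genes, described by F-box without the words F-box/RNI-like or FBD, had medians of 6.51, 5.996 and 6.12 FPKM. The 33 members whose description names FBD had a median of 1.69 FPKM in *pep2-1*, 2.89 in *pep1-1* and 3.45 in WT, while the 30 without FBD had 4.75, 4.78 and 5.17 FPKM. With FBD, each median is the value of the gene at the middle rank, AALP_AA8G448900 in *pep2-1* and AALP_AA8G205600 in *pep1-1* and WT, so it is not a typical change. The median log2 fold change of the 26 tested members with FBD was -0.24 in *pep2-1* over WT. Fewer cells that express a gene and less RNA per cell cannot be told apart in these bulk samples.

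**Figure D1:**
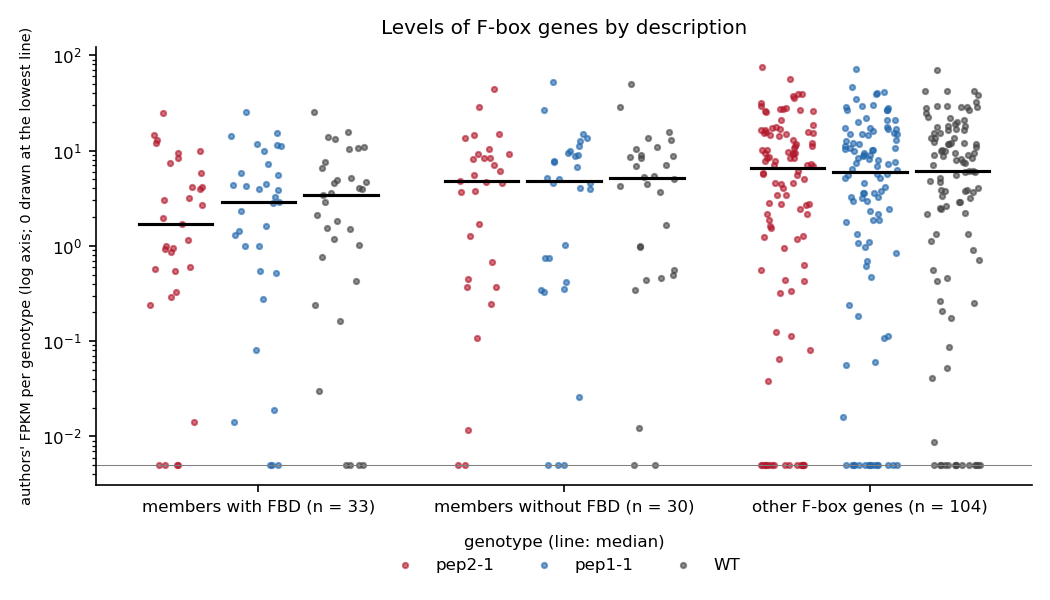
Points are the authors' FPKM of single genes, on a log axis, in *pep2-1*, *pep1-1* and WT, for members with FBD, members without FBD and other F-box genes, and black lines are medians. A value of 0 is drawn on the lowest line, and the median of members with FBD is 1.69 FPKM in *pep2-1* and 3.45 FPKM in WT. These medians are values of different genes, and the median log2 fold change of the 26 tested members with FBD was -0.24.

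The most abundant member was AALP_AA5G290100, ortholog of *TIR1*, the auxin receptor that targets AUX/IAA repressors for destruction, at 43.9 FPKM in *pep2-1*, 52.8 in *pep1-1* and 50.4 in WT. It lies on chromosome 5 from 22662525 to 22665319. In library order A, B, C it had 102, 126 and 116 CPM in *pep2-1*, 103, 142 and 169 in *pep1-1*, and 107, 150 and 139 in WT. Replicate A was the lowest in each genotype, and the genotypes overlapped. Its log2 fold change in *pep2-1* over WT was -0.20 (standard error, SE, 0.18, edgeR adjusted p = 0.63). The next by FPKM in WT were AALP_AA6G330900 (ortholog AT3G62440, 28.8 FPKM), AALP_AA8G350600 (AT5G56380, with FBD, 25.1 FPKM), AALP_AA8G373900 (AT1G05080, with FBD, 15.7 FPKM) and AALP_AA6G037900 (AT4G02740, 15.6 FPKM). None of these 5 was called, and their log2 fold changes in *pep2-1* over WT lay between -0.20 and -0.02. AALP_AA1G233200, ortholog of *SKP2A*, which in Arabidopsis takes part in turnover of cell cycle regulators, had 4.51 FPKM in *pep2-1*, 4.56 in *pep1-1* and 5.42 in WT and was not called either.

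Of the 63 members, 12 had too few reads to be tested, and 7 of these 12 carry FBD. AALP_AA4G049400, AALP_AA5G242000 and AALP_AA8G021700 had no read in any library. With 135128068 reads in genes over the 9 libraries, 0 reads allows up to 3 reads, or 0.0222 CPM, by counting error alone. The other 9 had between 1 and 73 reads in all. AALP_AA5G227400 had 1 read, in WT, and AALP_AA6G042900 had 1, in *pep1-1*. AALP_AA5G236400 had 2 reads in *pep2-1* and none in *pep1-1* or WT, AALP_AA3G304600 had 2 in *pep2-1*, 2 in *pep1-1* and none in WT, and AALP_AA8G356000 had none in *pep2-1* or *pep1-1* and 2 in WT. In each genotype these genes had fewer than the 3 reads that a count of 0 allows. AALP_AA5G245200 (ortholog AT3G59150), chosen after its values were seen, had 1, 3 and 0 reads in *pep2-1* libraries, 0, 1 and 0 in *pep1-1* libraries, and 9, 7 and 4 in WT libraries. Its WT libraries were all above those of the mutants, and it was not tested.

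The *pep2-1* libraries were then compared with those of WT. With a single EMS allele, an effect of *PEP2* cannot be told apart from that of other differences carried by the *pep2-1* plants. Calls needed an adjusted p no higher than 0.05 together with a log2 fold change of 1 or more in size. Among the 51 tested members, 5 were called lower and 1 higher in *pep2-1*. Of all 21713 tested genes, 0.659% were called lower and 0.175% higher. The 5 lower members all carry FBD, lie on 4 chromosomes, belong to no cluster of members and had 1.52 to 6.48 FPKM in WT. The higher member has no FBD. In 17 members every *pep2-1* library lay below every WT library, and in 4 every *pep2-1* library lay above, where 11.1% and 10.4% of all tested genes did so. The median log2 fold change was -0.13 over the 51 members, of which 37 were below 0, and 0.00 over all tested genes. For the 26 tested members with FBD it was -0.24, with 21 below 0, and for the 25 without FBD it was -0.10, with 16 below 0. These are counts from the contrast that was in view when the members were proposed, and nothing is read from them about the family. Without the replicate A libraries the counts stayed at 5 lower and 1 higher, and the median log2 fold change was -0.22. Leaving out WT replicate C put the lower members at 1, WT replicate B at 2, and *pep2-1* replicate A or C at 3 each, and the member called higher was lost without WT replicate B or C or *pep2-1* replicate A or B.

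AALP_AA1G152600 showed the largest fold change of any tested member. This gene, ortholog of AT1G13780 and described with F-box, RNI-like and FBD-like domains, lies on chromosome 1 from 9321270 to 9322818. It had 0.316, 0.386 and 0.473 CPM in *pep2-1*, 3.93, 2.81 and 3.28 in *pep1-1*, and 3.86, 3.44 and 3.02 in WT (libraries A, B and C, as in all such lists). The *pep2-1* libraries, with 5, 5 and 6 reads each, were far below the other 6, while those of *pep1-1* and WT overlapped. The transcript was 8.72-fold lower in *pep2-1* than in WT (log2 fold change -3.12, SE 0.27, edgeR adjusted p = 0.000578) and 8.48-fold lower than in *pep1-1* (-3.08, SE 0.27, edgeR adjusted p = 0.000645). It was called in both of these comparisons under all 17 alternatives, leaving out any 1 library included. By an exact two-sided permutation test each of these differences had p = 0.1, below which 3 against 3 libraries cannot go.

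AALP_AA8G205600 and AALP_AA8G448900 on chromosome 8 were also lower in *pep2-1* than in either other genotype. AALP_AA8G205600 (ortholog AT5G18770, an F-box/FBD gene at 14654638 to 14656907) had 1.90, 2.16 and 3.07 CPM in *pep2-1*, 4.60, 7.36 and 6.09 in *pep1-1*, and 5.54, 7.86 and 8.22 in WT. AALP_AA8G448900 (AT3G51530, F-box, RNI-like and FBD, at 37234756 to 37236840) had 2.65, 2.09 and 3.31 CPM in *pep2-1*, 5.08, 7.43 and 7.50 in *pep1-1*, and 6.42, 7.70 and 7.80 in WT. For each gene every *pep2-1* library lay below the other 6, and replicate A was the lowest of *pep1-1* and of WT. In *pep2-1* over WT the log2 fold change of AALP_AA8G205600 was -1.61 (SE 0.25, edgeR adjusted p = 0.0152) and that of AALP_AA8G448900 -1.45 (SE 0.21, adjusted p = 0.0118). With *pep1-1* as the base the values were -1.35 (edgeR adjusted p = 0.0299) and -1.31 (adjusted p = 0.018). The calls rest on 3 libraries a side. For AALP_AA8G205600, leaving out WT replicate B or C or *pep2-1* replicate A or B put the adjusted p of *pep2-1* over WT at 0.0783, 0.0691, 0.0683 and 0.0689. For AALP_AA8G448900, leaving out WT replicate B or C or *pep2-1* replicate A put it at 0.0653, 0.058 and 0.0503. Against *pep1-1*, each gene lost its call without *pep1-1* replicate B or C or *pep2-1* replicate A or B, with adjusted p of 0.114, 0.095, 0.108 and 0.0914 for AALP_AA8G205600 and 0.0774, 0.0676, 0.0689 and 0.0605 for AALP_AA8G448900 from edgeR.

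AALP_AA5G113200 and AALP_AA6G265200, both described with FBD, F-box and leucine-rich repeats, were called in *pep2-1* compared with WT only. AALP_AA5G113200 (ortholog AT3G49020, chromosome 5, 8433831 to 8437675) had 2.34, 2.47 and 1.81 CPM in *pep2-1*, 3.32, 4.47 and 3.12 in *pep1-1*, and 5.61, 5.12 and 6.04 in WT. The 3 genotypes did not overlap, with *pep1-1* in between. Its log2 fold change was -1.33 in *pep2-1* over WT (SE 0.20, edgeR adjusted p = 0.0119), -0.61 in *pep1-1* over WT (adjusted p = 0.519) and -0.72 in *pep2-1* over *pep1-1* (adjusted p = 0.103). AALP_AA6G265200 (AT2G26860, chromosome 6, 27809845 to 27811723) had 5.37, 5.49 and 4.41 CPM in *pep2-1*, 8.73, 12.2 and 8.52 in *pep1-1*, and 10.1, 11.6 and 11.2 in WT. The *pep2-1* libraries were below all others, and those of *pep1-1* and WT overlapped. Its log2 fold change was -1.11 in *pep2-1* over WT (SE 0.17, edgeR adjusted p = 0.0119), and -0.94 in *pep2-1* over *pep1-1* (adjusted p = 0.0231), which passes on adjusted p and misses the fold. Without *pep1-1* replicate A or C the comparison with *pep1-1* was called, at -1.02 and -1.04. In *pep2-1* over WT, AALP_AA5G113200 lost its call without WT replicate C or *pep2-1* replicate C (edgeR adjusted p = 0.0622 and 0.0619), and AALP_AA6G265200 without WT replicate B or C or *pep2-1* replicate C (adjusted p = 0.0690, 0.058 and 0.0641).

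AALP_AA5G246300, ortholog of AT4G14096 and described as F-box/RNI-like, was the member called higher. It lies on chromosome 5 from 19969704 to 19971814. Its CPM was 3.10, 4.02 and 2.68 in *pep2-1*, 2.17, 0.794 and 1.33 in *pep1-1*, and 0.802, 0.696 and 0.492 in WT. The *pep2-1* libraries were the highest, and *pep1-1* replicate B reached down to the WT range. The transcript was 4.85-fold higher in *pep2-1* than in WT (log2 fold change 2.28, SE 0.36, edgeR adjusted p = 0.0164). In *pep1-1* over WT the log2 fold change was 1.10 (SE 0.39, adjusted p = 0.632), and in *pep2-1* over *pep1-1* it was 1.18 (SE 0.34, edgeR adjusted p = 0.102). The gene held 7 to 17 reads per WT library, and the call was lost without WT replicate B or C or *pep2-1* replicate A or B (adjusted p = 0.0886, 0.0826, 0.0517 and 0.0672). Against *pep1-1* it was called without *pep1-1* replicate A (log2 fold change 1.62, edgeR adjusted p = 0.0317).

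**Figure D2:**
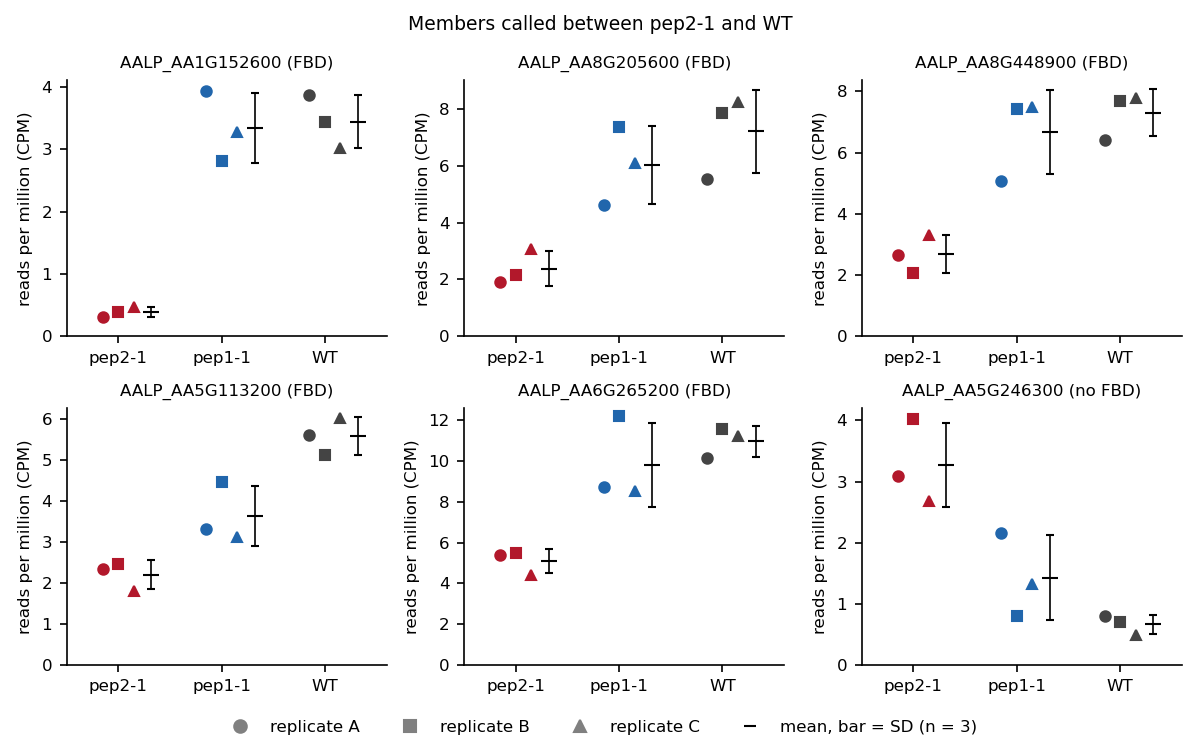
Each panel gives the CPM of 1 of the 6 members called between *pep2-1* and WT, by genotype, with 1 point per library and the mean and SD of 3 libraries beside the points. In the 5 members with FBD the *pep2-1* libraries lie below all WT libraries, and in AALP_AA5G246300 they lie between 2.68 and 4.02, above all WT libraries.

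The other 45 tested members were not called, and 37 of the 51 had a log2 fold change within 0.5 of 0 in *pep2-1* over WT, as did 19112 of all 21713 tested genes. AALP_AA8G350100 (ortholog AT5G56370, with FBD), chosen after its values were seen, came nearest to a call. It had 10.1, 11.4 and 9.62 CPM in *pep2-1*, 12.2, 15.8 and 15.6 in *pep1-1*, and 14.4, 17.9 and 17.0 in WT. Its *pep2-1* libraries lay below all others, and its log2 fold change of -0.67 (edgeR adjusted p = 0.0415) passed on adjusted p and not on fold. AALP_AA6G346100 (AT5G53635) and AALP_AA3G304900 (AT5G53592), both with FBD and also chosen after their values were seen, had log2 fold changes of -1.11 and -1.06 with adjusted p of 0.137 and 0.123 from edgeR. For AALP_AA6G346100 the CPM was 0.569, 1.08 and 1.10 in *pep2-1*, 1.56, 2.74 and 2.19 in *pep1-1*, and 2.11, 1.92 and 1.83 in WT. AALP_AA1G241100, the member with most reads after *TIR1* and also chosen after its values were seen, entered the list through the best-match text of its description and not through a domain of its own, so that 1 of the members counted with FBD is not described as an FBD protein itself. It had 11.96 FPKM in *pep2-1*, 11.1 in *pep1-1* and 10.7 in WT, and a log2 fold change of 0.16 in *pep2-1* over WT (edgeR adjusted p = 0.359).

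**Figure D3:**
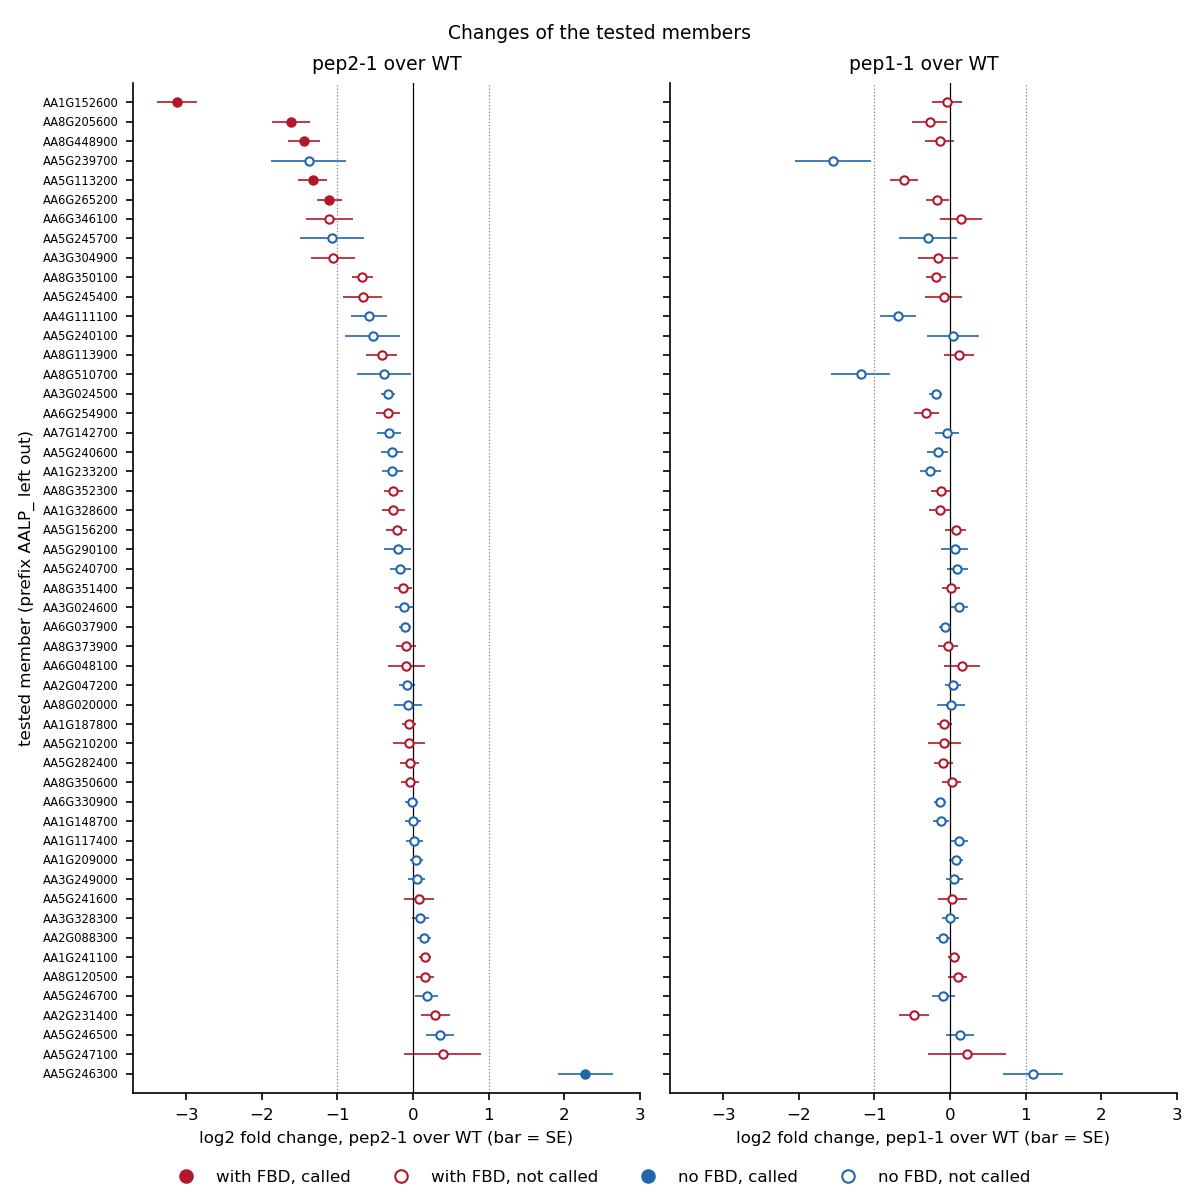
Points are the log2 fold changes of the 51 tested members in *pep2-1* over WT (left) and in *pep1-1* over WT (right), with the standard error as a bar, red for members with FBD and blue for those without. Filled points were called, which holds for 6 members on the left and for none on the right, and dotted lines mark a log2 fold change of 1 either way.

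In *pep1-1* compared with WT, edgeR called 0 of the 51 tested members in either direction. At an unadjusted p under 0.05 there were 6 members, 1 higher and 5 lower (11.8% of the 51, where 6.36% of all tested genes passed), and the Wald test of DESeq2 and limma-voom also called 0. Of all tested genes 0.0829% were called higher and 0.0783% lower. The median log2 fold change of the members was -0.07, and 46 of the 51 lay within 0.5 of 0. The largest decrease was that of AALP_AA5G239700 at -1.55 (SE 0.51, edgeR adjusted p = 0.574), described below with its cluster. The next was that of AALP_AA8G510700 (ortholog AT5G67140, chosen after its values were seen), with 1.45, 0.8501 and 0.552 CPM in *pep2-1*, 0.609, 0.433 and 0.625 in *pep1-1*, and 0.948, 1.35 and 1.48 in WT. Its *pep1-1* libraries were below all WT libraries, and its log2 fold change in *pep1-1* over WT was -1.18 (SE 0.39, edgeR adjusted p = 0.575).

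In *pep2-1* compared with *pep1-1*, 3 members were called lower and 0 higher by edgeR. The paper made this comparison to look for effects of *PEP2* that do not pass through *PEP1*, but a change in *pep1-1* alone also enters it. The called members were AALP_AA1G152600, AALP_AA8G205600 and AALP_AA8G448900, all with FBD and described above. At an unadjusted p under 0.05 there were 9 lower and 3 higher members (23.5% of the 51, where 19.1% of all tested genes passed), and DESeq2 and limma-voom called 0 higher and 4 and 3 lower. Of all tested genes 0.649% were called lower and 0.686% higher. The median log2 fold change of members was -0.08. Every *pep2-1* library lay below every *pep1-1* library in 10 members (19.6%) and above in 4 (7.84%), where 11.5% and 12.6% of all tested genes did so. AALP_AA2G231400 (ortholog AT1G78730, with FBD, chosen after its values were seen) stood on the other side, with 5.37, 4.10 and 3.55 CPM in *pep2-1*, 2.91, 2.53 and 2.19 in *pep1-1*, and 3.57, 3.32 and 3.79 in WT. Its *pep2-1* and *pep1-1* libraries did not overlap, and its log2 fold change between them was 0.77 (SE 0.20, edgeR adjusted p = 0.0837). In *pep1-1* over WT it was -0.48 (edgeR adjusted p = 0.762), with every *pep1-1* library below WT, while *pep2-1* overlapped WT. The comparisons share libraries, so that a low *pep2-1* value enters both the contrast with WT and that with *pep1-1*. Leaving out 1 library at a time gave 1 to 5 lower members in this comparison, with 1 (AALP_AA1G152600) left without *pep1-1* replicate B, *pep2-1* replicate A or *pep2-1* replicate B, and 5 lower and 1 higher without *pep1-1* replicate A. Without all replicate A libraries 4 members were called lower and 1 higher.

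Members were unevenly spread over the chromosomes. Chromosome 5 held 22 of the 63 (34.9%) against 10.6% of all described genes, and chromosome 8 held 13 (20.6%, against 19.5%). Chromosome 4 held 2 and chromosome 7 held 1. With neighbouring members at most 5 genes apart counted as a cluster, 19 members (30.2%) formed 6 clusters, of 7, 4 and 2 members on chromosome 5, 2 and 2 on chromosome 3 and 2 on chromosome 8. By the same rule 8 of the 104 other F-box genes (7.69%) lay in clusters, none of more than 2 genes, and 0 of 32 genes described as RNI-like without the word F-box did. That set is defined by wording alone and holds *COI1*, *MAX2*, *SKP2B* and *FBL17*, which are F-box genes in Arabidopsis. Of 58 NBS-LRR genes, a family of immune receptors that often lie in tandem, 19 (32.8%) did, with at most 3 in a cluster. These shares were not tested against each other. The clusters on chromosome 5 are part of a stretch of 708 kb (19343724 to 20051263) that held 14 of the 63 members among 108 genes, when members up to 50 genes apart were joined, a limit set after the positions were seen. Of the 14, 12 have Arabidopsis orthologs with locus names that start with AT3G58 or AT3G59. A further 54 genes of the stretch have no description, so that their family is unknown here.

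Members of this stretch were weakly expressed. Their median was 0.990 FPKM in WT, against 5.02 FPKM for the other 49 members, and 7 of the 14 lay under 1 FPKM compared with 11 of the other 49. Among the 11 tested, the log2 fold changes in *pep2-1* over WT ran from -1.38 to 2.28 with a median of -0.17, and 6 were below 0. The fitted values of neighbours in the array thus differed in sign. In the cluster of 7 members, 207.6 kb long, AALP_AA5G246300 was the called gene. Next to it in the cluster, AALP_AA5G246500 (AT3G59200) had 9.35, 8.66 and 8.59 CPM in *pep2-1*, 9.88, 7.14 and 5.62 in *pep1-1*, and 6.85, 6.43 and 7.59 in WT. Its *pep2-1* libraries lay above those of WT, at a log2 fold change of 0.36 (SE 0.18, edgeR adjusted p = 0.396). AALP_AA5G246700 (AT3G59210) had a log2 fold change of 0.18 and AALP_AA5G247100 (AT3G59270, FBD alone) of 0.39, with adjusted p of 0.599 and 0.755 from edgeR. At the other end of the cluster, AALP_AA5G245400 (AT3G59180, with FBD) had 1.33, 1.39 and 1.26 CPM in *pep2-1*, 1.49, 2.31 and 2.19 in *pep1-1*, and 2.33, 1.64 and 2.46 in WT. Its *pep2-1* libraries lay below all others, at a log2 fold change over WT of -0.67 (SE 0.26, edgeR adjusted p = 0.266). AALP_AA5G245700 (AT3G59190) had a log2 fold change of -1.07 (SE 0.43, adjusted p = 0.273), with 4 to 23 reads per library of these 2 genotypes. The log2 fold change of AALP_AA5G247100 turned to -0.25 in the alternative that lay lowest.

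In the cluster of 4 members, 37.7 kb long, none was called. AALP_AA5G239700 (AT3G58900) had 1.01, 1.00 and 0.631 CPM in *pep2-1*, 1.15, 0.794 and 0.391 in *pep1-1*, and 4.08, 1.23 and 1.90 in WT. All 6 mutant libraries lay below WT, and WT replicate A stood well above WT replicates B and C. The log2 fold change in *pep2-1* over WT was -1.38 (SE 0.50, edgeR adjusted p = 0.228), and it was -0.77 in the alternative nearest to 0. AALP_AA5G240100 (AT3G58920), AALP_AA5G240600 (AT3G59000) and AALP_AA5G240700 (AT3G58930) had log2 fold changes of -0.54, -0.28 and -0.17, with adjusted p of 0.52, 0.39 and 0.607 from edgeR. The adjacent pair AALP_AA3G024500 and AALP_AA3G024600 on chromosome 3, chosen after their values were seen, shares the ortholog AT3G03030 and lies 0.205 kb apart. The first had 15.2, 15.1 and 16.5 CPM in *pep2-1*, 17.8, 18.04 and 15.7 in *pep1-1*, and 19.2, 18.8 and 20.9 in WT, with *pep2-1* below WT in every library (log2 fold change -0.33, edgeR adjusted p = 0.123). The second had 14.2, 13.6 and 12.1 CPM in *pep2-1*, 14.6, 18.1 and 14.1 in *pep1-1*, and 12.8, 15.1 and 15.1 in WT, and its genotypes overlapped. The sources used here do not give how reads matching several near-identical genes were counted, and the split between such neighbours is uncertain.

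**Figure D4:**
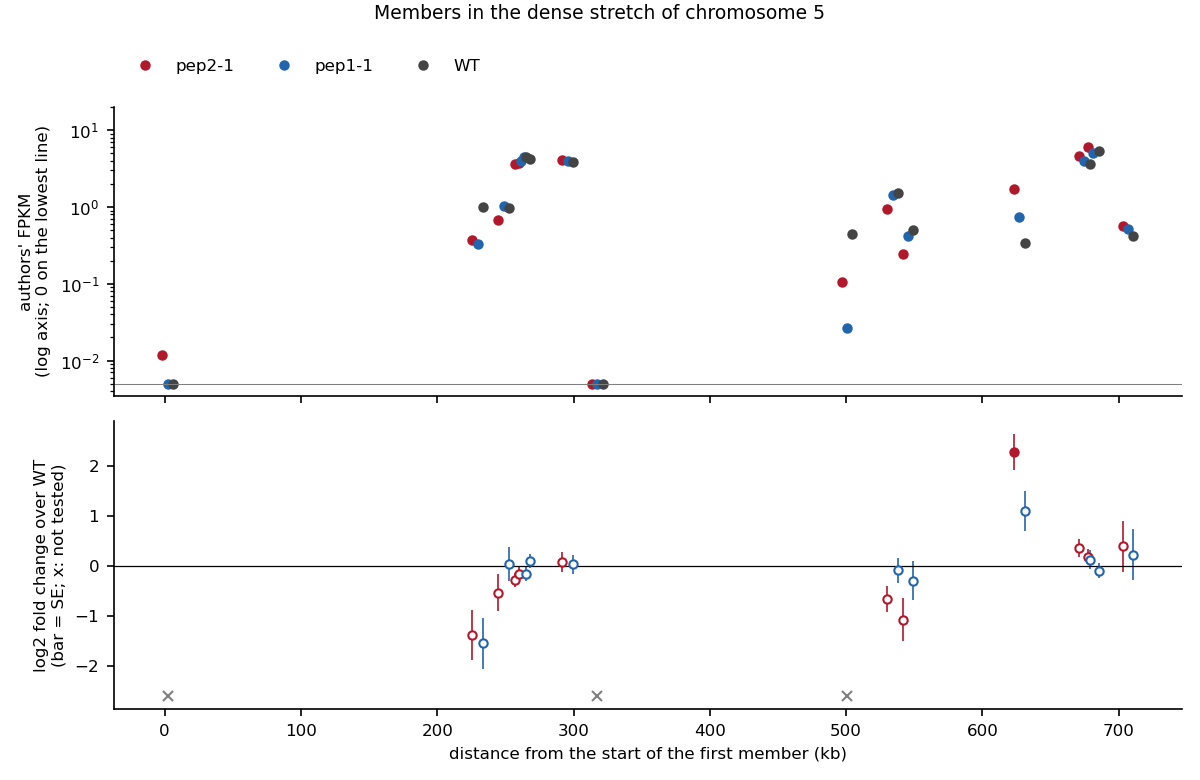
The upper panel gives the authors' FPKM (log axis, 0 on the lowest line) of the 14 members in the dense stretch of chromosome 5, and the lower panel the log2 fold changes over WT of the 11 tested ones with their standard errors, red for *pep2-1* and blue for *pep1-1*, by distance in kb from the start of the first member. The filled point is AALP_AA5G246300 at 2.28, and crosses mark the 3 members that were not tested.

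The 5 genes on each side of the 6 called members were examined to see whether a change spread along the chromosome. Of 52 such genes that were tested, 2 were called in *pep2-1* compared with WT, both lower, and 1 more passed on adjusted p alone. Over all 21713 tested genes, 0.659% were called lower and 0.175% higher, and 330 passed on adjusted p. The 52 include AALP_AA5G246500 and AALP_AA5G246700, which are members themselves. Neighbours named in this paragraph were chosen after their values were seen. AALP_AA1G152500, beside AALP_AA1G152600 on chromosome 1 and without a description in the deposited table, had 3.29, 4.56 and 2.21 CPM in *pep2-1*, 2.505, 1.80 and 2.11 in *pep1-1*, and 12.1, 9.21 and 10.1 in WT. The libraries of both mutants were below those of WT, with log2 fold changes of -1.64 in *pep2-1* and -2.28 in *pep1-1* over WT (edgeR adjusted p = 0.0102 and 0.00532). AALP_AA1G152400, the next gene, had a log2 fold change of -0.84 in *pep2-1* over WT (adjusted p = 0.124) and of -3.26 in *pep1-1* over WT (edgeR adjusted p = 0.00132). In *pep2-1* over *pep1-1*, where AALP_AA1G152600 was lower, AALP_AA1G152400 was called higher (2.42, edgeR adjusted p = 0.00359). AALP_AA1G152500 was not called there (0.64, edgeR adjusted p = 0.234). AALP_AA1G152600 thus shared a low level in *pep2-1* with AALP_AA1G152500, but its *pep1-1* libraries overlapped those of WT. AALP_AA8G449000, 3.36 kb from AALP_AA8G448900 and also without a description in the table, had 1.96, 1.62 and 2.13 CPM in *pep2-1*, 3.79, 5.196 and 4.53 in *pep1-1*, and 4.45, 4.22 and 4.21 in WT. Like its neighbour it was lower in *pep2-1* than in WT (log2 fold change -1.17, edgeR adjusted p = 0.0161) and in *pep1-1* (-1.24, adjusted p = 0.0123). AALP_AA6G264900, a methyltransferase gene 13.6 kb from AALP_AA6G265200, had a log2 fold change of -0.92 in *pep2-1* over WT (edgeR adjusted p = 0.0183). Over *pep1-1* it was -0.98 (edgeR adjusted p = 0.0137). No tested neighbour of AALP_AA5G113200, AALP_AA8G205600 or AALP_AA5G246300 passed on adjusted p. AALP_AA8G205800, 12.3 kb from AALP_AA8G205600, had 1.20, 1.24 and 1.02 CPM in *pep2-1*, 1.96, 1.44 and 1.87 in *pep1-1*, and 1.90, 2.21 and 2.04 in WT. Its *pep2-1* libraries lay below all others, at a log2 fold change over WT of -0.83 (edgeR adjusted p = 0.117). AALP_AA5G246800, 61.6 kb from AALP_AA5G246300, had a log2 fold change of 1.63 in *pep2-1* over WT (edgeR adjusted p = 0.281), and its libraries overlapped.

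**Figure D5:**
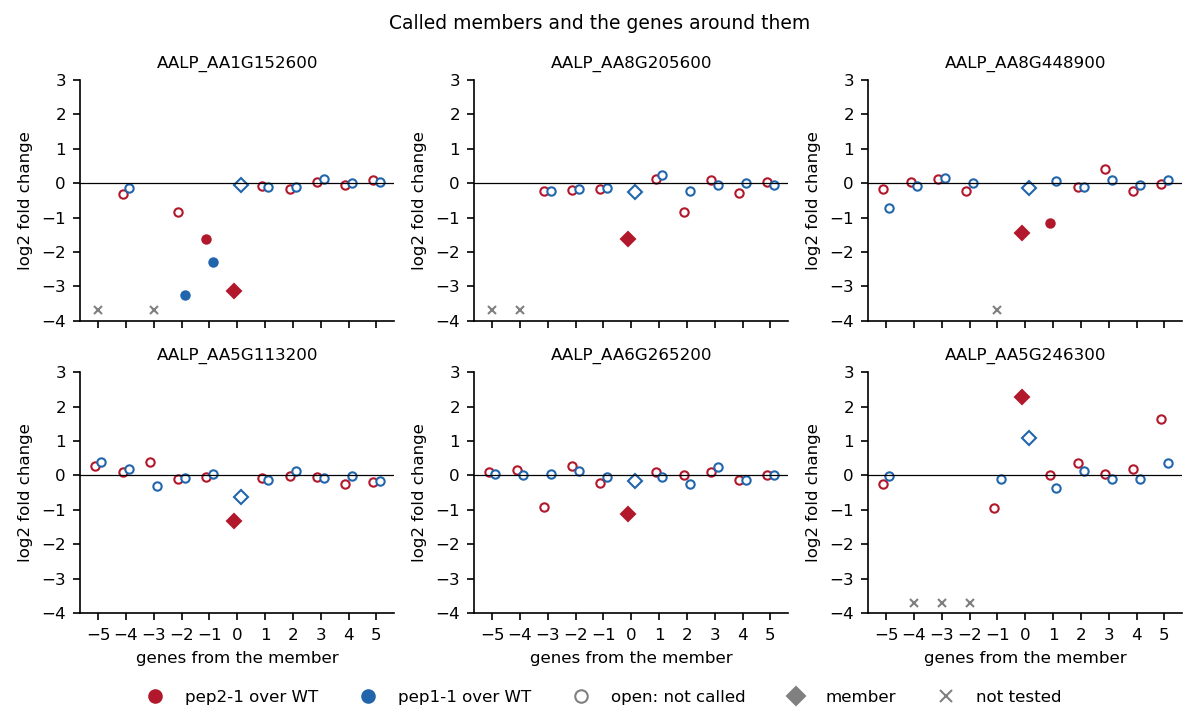
Each panel gives the log2 fold changes over WT of 1 called member (diamond, at 0) and of the 5 genes on either side (circles, by order along the chromosome), red for *pep2-1* and blue for *pep1-1*, filled where called, with crosses for genes not tested. Beside AALP_AA1G152600 the neighbour at -1 is called in both mutants, at -1.64 in *pep2-1* and -2.28 in *pep1-1*.

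Genes that work with F-box proteins were examined beside the members. Of 24 tested genes for the SCF core and its regulators, 1 (4.17%, against 0.659% of all tested genes) was called lower and 0 higher in *pep2-1* compared with WT. By edgeR 2 of them, both lower, had an unadjusted p under 0.05 (8.33%, where 15.3% of all tested genes passed). *ASK1*, the SKP1 gene that bridges F-box proteins to the ligase, had 370 ± 7.34 CPM in *pep2-1*, 347 ± 10.8 in *pep1-1* and 353 ± 11.98 in WT (SD, n = 3), with a log2 fold change of 0.07 in *pep2-1* over WT (edgeR adjusted p = 0.651). *CUL1*, the scaffold, had a log2 fold change of 0.04 (adjusted p = 0.826). The called gene was AALP_AA2G143000, ortholog of *CSN5B*, a subunit of the COP9 signalosome that removes RUB from cullins. It had 2.21, 1.85 and 2.21 CPM in *pep2-1*, 5.89, 5.92 and 6.09 in *pep1-1*, and 7.07, 8.60 and 6.04 in WT. Its *pep2-1* libraries were below all others, with log2 fold changes of -1.79 over WT and -1.51 over *pep1-1* (edgeR adjusted p = 0.00136 and 0.00359). Its paralog *CSN5A* had 77.7 CPM in *pep2-1*, 79.4 in *pep1-1* and 78.3 in WT (log2 fold change -0.01 in *pep2-1* over WT). The SKP1-like gene AALP_AA5G237300 (*ASK4*), which lies in the dense stretch of chromosome 5, had a log2 fold change of -0.32 (adjusted p = 0.215), AALP_AA4G249300 (*ASK20*) of -0.26 (adjusted p = 0.506) and AALP_AA7G097000 (*CSN6B*) of -0.13 (edgeR adjusted p = 0.487).

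Among 31 tested F-box genes of known role, of which *TIR1* and *SKP2A* are members, edgeR, DESeq2 and limma-voom each called 0 in *pep2-1* compared with WT. By edgeR 2 (1 higher, 1 lower) had an unadjusted p under 0.05 (6.45%, where 15.3% of all tested genes passed). Their median log2 fold change was 0.02. The smallest adjusted p belonged to AALP_AA2G211600, ortholog of the cell cycle gene *SKP2B*, with 15.1, 19.3 and 16.7 CPM in *pep2-1*, 14.4, 8.59 and 9.14 in *pep1-1*, and 11.4, 13.7 and 11.6 in WT (log2 fold change 0.47, edgeR adjusted p = 0.272). AALP_AAs68017U000800 (*CPR1*, which limits immune receptor levels in Arabidopsis) had a log2 fold change of -0.26, AALP_AA5G272200 (*HWS*, a regulator of organ fusion and shedding) of 0.41 and AALP_AA6G082400 (*DOR*, a regulator of stomatal closure in drought) of -0.36, with adjusted p of 0.29, 0.357 and 0.38 from edgeR. The other auxin receptors in the table, *AFB1*, *AFB3* and *AFB5*, had log2 fold changes of 0.15, 0.02 and 0.11. Of the 80 other F-box genes that were tested, edgeR called 4 (5%) lower and 0 higher in *pep2-1* compared with WT. That set is also defined by wording, and it holds *AFB3* and *AFB5*. Their median log2 fold change was -0.09, and DESeq2 and limma-voom called 0 higher. At an unadjusted p under 0.05, 10 were lower and 1 higher (13.75%, where 15.3% of all tested genes passed). Of 28 tested genes described as RNI-like without the word F-box, *SKP2B* among them, 1 (3.57%) was called lower, and of 47 tested NBS-LRR genes 2 (4.26%) were. The share called lower over all tested genes was 0.659%. The members took 0.0722% ± 0.00212 of the reads in genes in *pep2-1*, 0.0780% ± 0.00621 in *pep1-1* and 0.0803% ± 0.00638 in WT (SD, n = 3), and the libraries of *pep2-1* and WT overlapped.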

How the data were processed

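RNA from 9 libraries, 3 per genotype, was sequenced single-end at 100 bp. The authors aligned reads to the *A. alpina* genome with TopHat and quantified genes with CuffDiff, in versions not given in the sources used here. Raw reads by gene were deposited for each library and were taken as estimated counts because 64 genes have fractional values (1 member among them), and rounded to whole numbers. FPKM values per genotype were pooled over 3 libraries by the authors, so that they carry no error. A further 18 columns of scaled reads and FPKM per library were not used, nor were the authors' fold changes, p-values and q-values. The table letters the libraries A to C and the labels number them, so that libraries are named by letter. Starts count from 0 in the table and were raised by 1 here.

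In edgeR 4.0.16 (R 4.3.3), filterByExpr at a minimum count of 10 and a total of 15 left 21713 genes. These were tested by the quasi-likelihood test in 1 model of the 9 libraries with TMM factors, and Benjamini-Hochberg adjustment ran over all of them. Standard errors are the fold change over the root of the F statistic. Exact permutation tests used scipy 1.17.1. Alternatives were DESeq2 1.42.0, limma-voom (limma 3.58.1), other library scaling, no filter, the 6 compared libraries alone, a replicate block, leaving out each library, and leaving out the replicate A libraries. Each p-value of the main fit sets a difference between genotypes against the spread within genotypes. That spread was estimated for each gene over the 9 libraries together, so it is not that of the 3 libraries of 1 genotype.

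The text names members called in a comparison, the 5 with the highest FPKM in WT, the tested members of the 2 clusters with most members, up to 3 members, those with most reads, among the 5 with reads in 1 genotype and none in another, and 4 genes of each list with the smallest adjusted p. Others are marked as chosen after their values were seen, stand for a list, or are members named for too few reads to be tested or for overlapping another gene. The lists were SCF core and regulators (27 of 43 Arabidopsis genes found through the orthologs in the table), F-box genes of known role (32 of 37), and markers of shoot apex (8 of 8), root (5 of 5), green leaf (2 of 3) and flower (4 of 4). Of the 2 tested root markers 0 were called by edgeR, with 0 at an unadjusted p under 0.05. The members and lists were chosen with earlier results of these data known. The rule reads descriptions, which 11226 of the 30690 genes lack, so that further family members may stand outside it. AALP_AA4G111100 overlaps another gene, and without stated strand their reads cannot be told apart. No sequences are shown.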

Additional observations from a re-analysis of the deposited data

How the results depend on the processing

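With single libraries left out, the members called in *pep2-1* compared with WT numbered 1 to 5 lower and 0 to 1 higher, and those in *pep2-1* compared with *pep1-1* 1 to 5 lower and 0 to 1 higher. The medians of the members' log2 fold changes ran from -0.19 to -0.12 and from -0.13 to -0.0707 in these comparisons, and the difference in the members' share of reads (*pep2-1* minus WT, -0.00804 percentage points) from -0.0117 to -0.00604. Without the 3 replicate A libraries the medians were -0.22 and -0.11, and AALP_AA5G246300 became 1 member called higher in *pep2-1* compared with *pep1-1*. In *pep1-1* compared with WT the count was 0 under all 17 alternatives. Only adjacent members counted as clusters gave 4 members in 2 clusters. The causes of these shifts were not tested, beyond the fewer libraries or the narrower limit. With the replicate letter as a block the counts were 5 lower and 1 higher in *pep2-1* compared with WT, and 4 lower in *pep2-1* compared with *pep1-1*. Of the 9 same-letter pairs 6 correlated above 0.1 in their deviations from the genotype means (-0.0273 to 0.626), and in 12 of 18 cases a library correlated best with its own letter. Libraries of a letter thus tended to deviate together. All pairs of *pep1-1* with WT passed (0.319 to 0.626), where the block left 0 members called, and 1 or more pairs of *pep2-1* with either genotype did not, so that the block was kept as an alternative. A leave-one-out of members at 1 FPKM was not run, since FPKM entered as pooled values. Most members had under 10 FPKM, and depth limits what their counts can show.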
